A study of Mus musculus with 17 samples.

Results

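The diaphragm of mice with a tumor was compared with that of tumor-free mice after mock injection. The comparison took 8 of the 17 mice of the series, 3 in the group LLC and 5 in the group Control, and 13305 of the 47643 gene symbols in the table, those with at least 1 TPM (a transcript's share of the library after correction for length, scaled to a sum of 1000000) in at least 3 of the 17 mice. All mice were male C57BL/6J at 4 months of age. LLC mice carried Lewis lung carcinoma, a transplantable mouse lung cancer line, grown from cells placed under the skin of both flanks for some weeks, and Control mice carried no tumor. Mice of both groups received injections of PBS with bovine serum albumin into the peritoneal cavity, which the diaphragm borders, so that no group here was uninjected. The other 9 mice received rFibcd1, a recombinant fragment of the secreted protein Fibcd1, either without a tumor (Control + rFibcd1, 5 mice) or with one (LLC + rFibcd1, 4 mice), and entered the filter, the estimate of the spread and the last comparison. The question was which transcripts of this muscle differ when a tumor grows elsewhere in the body.

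The diaphragm is the main muscle of breathing, and its wasting in cancer cachexia weakens respiration. Muscle fibers shrink when the breakdown of contractile proteins by the ubiquitin-proteasome system and autophagy exceeds their synthesis. Circulating cytokines of the IL-6 and TNF families, activins and glucocorticoids are known drivers of this loss, and the ubiquitin ligases Fbxo32 (atrogin-1) and Trim63 (MuRF1) are its standard transcript markers. A whole diaphragm also holds vessels, connective tissue, fat, blood and resident leukocytes, and its peritoneal face carries lymphoid clusters rich in B cells.

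LLC diaphragms held higher transcript levels of immune cells and antigen presentation and lower levels of the contractile and respiratory apparatus. All 20 tested B cell markers, 21 of 23 T cell markers, 13 of 14 MHC class II genes and 20 of 24 cytokine receptors rose, and 27 of 28 ribosomal protein genes rose by smaller amounts. Of all tested genes 29.7% rose and 6.02% fell. The filter was met only with the LLC mice by 1 of these B cell markers, 7 T cell markers and 2 receptors. Of the others 19 of 19, 15 of 16 and 19 of 22 rose. Of 29 nuclear genes of the respiratory chain 26 fell, as did 15 of 26 sarcomere genes and 11 of 16 genes of calcium release. Without LLC replicate 3, the fit that included the rFibcd1-injected mice called no gene of these lists except 1 of the respiratory chain. Without that mouse and the rFibcd1-injected mice, 9 B cell, 12 T cell, 13 class II, 19 receptor and 24 ribosomal genes passed. So did 14 respiratory chain, 6 sarcomere and 7 calcium release genes. Fbxo32 and Trim63 did not pass the test, while Ppargc1a, the coactivator of mitochondrial gene expression, fell by 1.34 ± 0.40 (log2 of TPM + 1, SE; adjusted p = 0.0205), a call that held in 6 of 8 fits with 1 of these mice left out and in 2 of 8 when they were fitted without the rFibcd1-injected mice. As these are whole-muscle samples, more cells of a type and more RNA per cell cannot be told apart.

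The counts are from limma with Benjamini-Hochberg adjustment over all 13305 genes and a threshold of 0.05. At that threshold 4759 genes (35.8% of those tested) differed, 3958 higher in LLC (29.7%) and 801 lower (6.02%), and 6422 had an unadjusted p under 0.05. The values of the 3 LLC and the 5 Control mice did not overlap in 5354 genes (40.2%), of which 4467 were higher in LLC (33.6%) and 887 lower (6.67%), and 4127 genes were both called and without overlap. The median change over all genes was 0.16, so a list of genes is read against that value as well as against 0. In 10 of the 51 lists the share called higher lay within 10 percentage points of the 29.7% of all genes, so that their counts do not set them apart. They were autophagy, the proteasome, the IL-6 family, myostatin and activin, immunoglobulin constant regions, the interferon gamma response, complement, endothelium, fibroblasts and matrix, and polyamine and amino acid stress. Median-ratio scaling moved this median to -0.013, quantile normalization to -0.099 and rescaling without the mitochondrially encoded genes to 0.074. The share of higher genes among the calls, 83.2% as deposited, was then 48.5%, 32.2% and 62.7%.

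The libraries were of even depth, with an estimated 50700000 to 53800000 reads in each of these 8 mice, and 11798 to 13413 genes per mouse reached 1 TPM. Muscle identity was clear in every library, with Acta1 (skeletal actin) at 20207 TPM or more and Ckm (muscle creatine kinase) at 4216 TPM or more. Mitochondrially encoded transcripts took 45.9% to 48.4% of the TPM in Control and 41.3% to 44.3% in LLC. Control replicate 5 stood apart with nearly no B cell transcripts, and Control replicate 2 with the most immunoglobulin of the Control mice. The number of calls depended on single mice. Without LLC replicate 3 it was 24 (0.18%), with 4508 genes at an unadjusted p under 0.05, and without LLC replicate 1 it was 2272, and 23 genes (0.173%) passed with all mice and with each of the 8 mice left out. When the 8 mice were fitted alone, without the spread of the 9 rFibcd1-injected mice, 5231 genes passed (39.3%), 2471 without LLC replicate 3 (18.6%), 3116 without LLC replicate 1 and 2338 in all 9 fits (17.6%). Of the 13305 tested genes 335 met the filter (1 TPM in 3 or more mice) only with the LLC mice, as fewer than 3 of the other mice reached it, and 198 of these were among the calls, which the filter favors. For each group of genes below, the text therefore gives the number that passed in the 8-mouse fit without LLC replicate 3 and the range of its calls over 17 mice when one of the other 7 mice was left out, naming the mice (LLC 1 for LLC replicate 1) whose absence moved the number by over 1.5 times in either direction. In the fit over all 17 mice without that mouse, 49 of the 51 lists had 0 calls, the nuclear respiratory chain had 1 and the fibroblast list had 2.

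**Figure D1:**
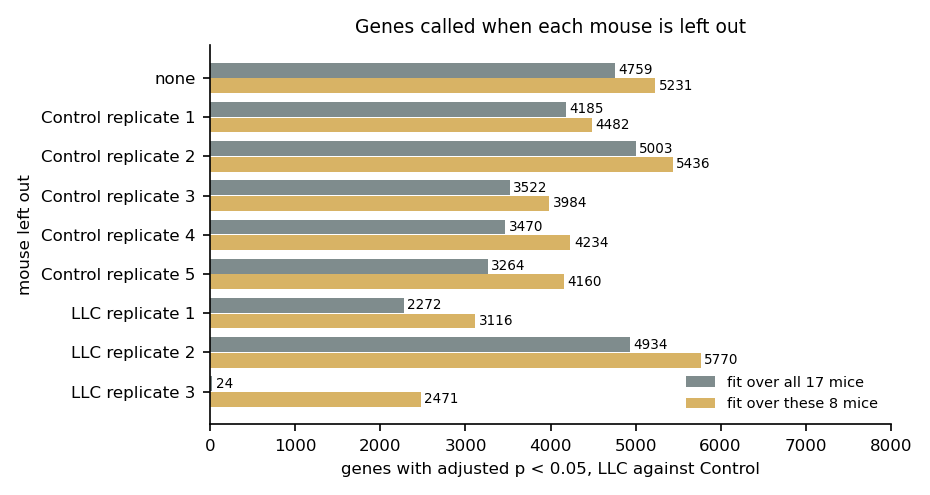
Number of genes with an adjusted p under 0.05 in LLC against Control (horizontal axis) with no mouse left out and with each of the 8 mice left out (vertical axis), in the fit over all 17 mice (gray bars) and over the 8 mice alone (yellow bars). Leaving out LLC replicate 3 took the first count from 4759 to 24 and the second from 5231 to 2471.

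Genes of the sarcomere were lower or did not pass. Of 26 tested genes of the sarcomere and Z-disc, 15 fell and 0 rose, and the median change was -0.25 against 0.16 over all genes. In the order of replicates 1 to 5 and 1 to 3, which holds for all values below, Ttn, the giant spring of the sarcomere (chromosome 2, 76703980 to 76982547), was at 126, 94.1, 117, 134 and 112 TPM in Control and 90.1, 88.0 and 84.1 TPM in LLC. The groups did not overlap, and Ttn fell by 0.40 ± 0.11 (log2, SE; adjusted p = 0.0182). Neb, the ruler of the thin filament, was at 217, 148, 206, 239 and 181 TPM in Control and 142, 139.6 and 135 TPM in LLC. Its highest LLC value lay under its lowest Control value, and it fell by 0.49 ± 0.15 (adjusted p = 0.0249). Myoz3, a Z-disc protein that binds calcineurin, fell by 0.42 ± 0.11 (adjusted p = 0.015), and its means were 59.0 ± 6.83 TPM in Control (SD, n = 5) and 43.6 ± 2.66 TPM in LLC (SD, n = 3). Ckm was at 5253, 5238, 5701, 5275 and 5536 TPM in Control and 4501, 4708 and 4216 TPM in LLC and fell by 0.27 ± 0.052 (adjusted p = 0.00904). Acta1 was at 22896, 21842, 23769, 23855 and 21869 TPM in Control and 20824, 20207 and 20244 TPM in LLC, again without overlap, and missed the threshold (change -0.16 ± 0.061, adjusted p = 0.0524). 6 of the 26 genes passed in the 8-mouse fit without LLC replicate 3. The range over the other leave-outs was 6 to 17 (6 without LLC 1).

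Myosin heavy chains, the motor proteins whose isoforms define fiber types, did not move together. Myh1, the isoform of type 2x fibers (chromosome 11, 67200052 to 67224575), was at 3744, 4088, 5009, 5154 and 4954 TPM in Control and 3166, 3099.6 and 2527 TPM in LLC. Every LLC value lay below every Control value, and Myh1 fell by 0.64 ± 0.13 (adjusted p = 0.0093). Myh2 of type 2a fibers was at 1685, 1383, 1436, 1805 and 1406 TPM in Control and 1364, 1596 and 1426 TPM in LLC, with overlapping groups (change -0.072 ± 0.14, adjusted p = 0.704). Myh4 of type 2b fibers was at 1582, 855, 978, 246 and 864 TPM in Control and 1181, 1186 and 1571 TPM in LLC, and Control replicate 4 lay far below the rest (change 0.74 ± 0.50, adjusted p = 0.243). Myh7 of slow type 1 fibers was at 371, 313, 336, 329 and 282 TPM in Control and 327, 339 and 305 TPM in LLC, and its change of -0.008 ± 0.20 (adjusted p = 0.977) also overlapped. Of the 15 tested fast fiber genes 7 fell and 0 rose (median -0.20). Among them Mylpf, the fast regulatory light chain, fell by 0.35 ± 0.077 (adjusted p = 0.0106), and its means were 5026 ± 249.6 TPM in Control (SD, n = 5) and 3940.1 ± 264 TPM in LLC (SD, n = 3). Of 12 slow fiber genes 2 fell, Casq2 and Sln (median -0.031). 6 fast fiber genes and 0 slow fiber genes passed in the 8-mouse fit without LLC replicate 3. The range over the other leave-outs was 6 to 8 for fast and 1 to 2 (1 without Control 4 or Control 5 or LLC 1) for slow fiber genes.

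The cardiac and stress sarcomere list, genes expressed in the heart or in developing and injured muscle, gave 1 higher and 1 lower gene of 8 tested (median 0.28). Actc1, cardiac actin (chromosome 2, 114047282 to 114053548), was at 209, 205, 455, 289.7 and 356 TPM in Control and 193, 99.5 and 122 TPM in LLC. It fell by 1.116 ± 0.32 (adjusted p = 0.0186), with LLC replicate 1 close to the lowest Control mouse. Myl4, the atrial and embryonic light chain, which met the filter only with the LLC mice, was at 0.875, 0.847, 0.883, 0.440 and 0.652 TPM in Control and 1.26, 1.496 and 1.36 TPM in LLC and rose by 0.46 ± 0.10 (adjusted p = 0.0111). The embryonic and neonatal myosins Myh3 and Myh8 were below the filter on low values. None of the 8 genes passed in the 8-mouse fit without LLC replicate 3. Each of the fits that left out one of the other mice called 2 genes.

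Excitation is coupled to contraction by calcium release from the sarcoplasmic reticulum, and 11 of the 16 tested genes of this machinery fell while 0 rose (median -0.27). Ryr1, the calcium release channel (chromosome 7, 29003344 to 29125179), was at 270.0, 255, 286, 285 and 288 TPM in Control and 212, 228 and 211 TPM in LLC. The groups did not overlap, and Ryr1 fell by 0.35 ± 0.075 (adjusted p = 0.0104). Jph1, which holds the reticulum against the surface membrane, was at 59.1, 51.7, 56.1, 59.3 and 59.6 TPM in Control and 41.9, 44.4 and 42.5 TPM in LLC and fell by 0.40 ± 0.085 (adjusted p = 0.0102). Cacna2d1, a subunit of the voltage sensor, fell by 0.50 ± 0.15 (adjusted p = 0.0204), and Casq2, the slow fiber calcium store protein, by 0.39 ± 0.10 (adjusted p = 0.0151). In the 8-mouse fit without LLC replicate 3, 7 of the 16 passed, Ryr1 and Jph1 among them (adjusted p = 0.0241 and 0.0238). From 8 to 12 genes were called over the other leave-outs.

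Genes of the neuromuscular junction and of denervation went both ways, with 2 higher and 4 lower of 14 tested (median -0.083). The receptor components Musk, Dok7 and Lrp4 and the denervation-responsive Gadd45a fell, and Ncam1 and Runx1 rose. Gadd45a was at 15.2, 14.5, 18.6, 19.3 and 15.0 TPM in Control and 12.2, 13.5 and 12.5 TPM in LLC and fell by 0.34 ± 0.12 (adjusted p = 0.0339). Runx1 was at 1.01, 1.28, 0.798, 0.863 and 1.03 TPM in Control and 1.33, 1.48 and 1.88 TPM in LLC and rose by 0.36 ± 0.11 (adjusted p = 0.0223). Leukocytes express Runx1 too. Of 13 satellite cell and myogenic genes 2 fell and 0 rose (median -0.17). Myod1, the myogenic regulator, was at 15.6, 12.4, 11.3, 12.7 and 12.9 TPM in Control and 10.9, 8.34 and 9.83 TPM in LLC and fell by 0.39 ± 0.13 (adjusted p = 0.036). Pax7, the satellite cell factor, was at 1.17, 1.54, 2.05, 2.12 and 1.53 TPM in Control and 1.07, 1.35 and 0.783 TPM in LLC with overlap (change -0.37 ± 0.16, adjusted p = 0.0859), and Myog had a change of -0.035 ± 0.14 (adjusted p = 0.86). In the 8-mouse fit without LLC replicate 3 neither list had a call. From 2 to 5 (2 without Control 4 or LLC 1, 3 without Control 3) junction genes and 0 to 4 (0 without Control 1 or Control 4 or Control 5 or LLC 2, 1 without LLC 1, 4 without Control 2) satellite cell genes were called over the other leave-outs.

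The respiratory chain was the group with the highest share of lower genes among the 51 lists. Of 29 tested nuclear genes for complexes I to V and cytochrome c, 26 fell, 0 rose and all 29 changes were negative (median -0.23, range -0.38 to -0.14). Cox7a1, the muscle isoform of a cytochrome c oxidase subunit (chromosome 7, 30184144 to 30186078), was at 1514, 1518, 1606, 1458 and 1575 TPM in Control and 1177, 1242 and 1118 TPM in LLC. The groups lay well apart, with little spread within each, and Cox7a1 fell by 0.38 ± 0.052 (adjusted p = 0.0046). Ndufs1, the largest subunit of complex I, was at 255, 245, 273, 283 and 265 TPM in Control and 214, 214 and 190.3 TPM in LLC and fell by 0.36 ± 0.06 (adjusted p = 0.00734). Sdhb, the iron-sulfur subunit of complex II, was at 615, 638, 641, 664 and 667 TPM in Control and 531, 562 and 475 TPM in LLC and fell by 0.31 ± 0.05 (adjusted p = 0.00734). The changes were small and uniform, and the LLC values of each of these genes lay below all Control values. 14 of the 29 genes passed in the 8-mouse fit without LLC replicate 3. From 24 to 27 were called over the other leave-outs. Of the 13 tested mitochondrially encoded genes 7 fell and 0 rose (median -0.14, and 0 after quantile normalization). Among them mt-Nd6, the only protein gene of the light strand, was at 650.2, 574, 794, 614 and 527 TPM in Control and 430.3, 477 and 514 TPM in LLC and fell by 0.40 ± 0.14 (adjusted p = 0.0383), and mt-Nd4l fell by 0.25 ± 0.057 (adjusted p = 0.0111). Whether reads of the opposite strand were counted for mt-Nd6 is not known. None of the 13 passed in the 8-mouse fit without LLC replicate 3. From 3 to 7 (3 without Control 4 or LLC 1, 4 without Control 3 or Control 5) of them were called over the other leave-outs.

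Regulators of mitochondrial biogenesis gave 4 lower genes, Ppargc1a, Esrra, Tfam and Tfb2m, and 1 higher, Nrf1, of 16 tested (median -0.16). Ppargc1a (chromosome 5, 51454250 to 51567726) was at 14.8, 39.2, 33.6, 16.1 and 62.1 TPM in Control and 10.4, 11.9 and 10.1 TPM in LLC. The Control mice ranged widely, while the LLC mice were close to each other and all below the lowest Control value. Ppargc1a had the largest fall of the called genes without overlap, immunoglobulin and T cell receptor segments aside. It passed in 2 of the 8 leave-outs of the 8-mouse fit, and not without LLC replicate 3 (adjusted p = 0.123), where none of the 16 genes did. The calls over the other leave-outs were 1 to 7 (1 without LLC 1, 2 without Control 4, 3 without Control 3 or Control 5). Nrf1 was at 2.36, 2.44, 2.23, 2.15 and 2.40 TPM in Control and 2.70, 2.94 and 3.06 TPM in LLC and rose by 0.23 ± 0.081 (adjusted p = 0.0365), and its direction turned after quantile normalization.

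Genes of fatty acid oxidation were lower as well. Of 25 tested genes 13 fell and 2 rose (median -0.23). The falls covered the mitochondrial enzymes Acadm, Acadl, Acadvl, Acads, Hadha, Hadhb, Hadh and Acaa2. Cpt1b, the muscle carnitine palmitoyltransferase that admits fatty acids to mitochondria, was at 312, 292, 348, 364 and 318 TPM in Control and 289, 283 and 252 TPM in LLC and fell by 0.25 ± 0.081 (adjusted p = 0.0295). Its liver-type counterpart Cpt1a was at 13.6, 12.1, 12.7, 15.3 and 9.37 TPM in Control and 18.8, 17.2 and 26.6 TPM in LLC and rose by 0.68 ± 0.21 (adjusted p = 0.0264). Ucp2, an inner membrane carrier abundant in leukocytes, was at 22.1, 22.4, 16.6, 14.8 and 15.1 TPM in Control and 34.2, 41.7 and 53.0 TPM in LLC and rose by 1.19 ± 0.29 (adjusted p = 0.0122). In each of these 3 genes the groups did not overlap. In all 1 of the 25 genes passed in the 8-mouse fit without LLC replicate 3. Of 23 genes of glycolysis and glycogen 3 rose and 5 fell (median -0.096). Hk1, the broadly expressed hexokinase, was at 4.14, 4.797, 4.90, 4.16 and 3.92 TPM in Control and 6.31, 6.56 and 7.66 TPM in LLC and rose by 0.54 ± 0.11 (adjusted p = 0.00969). Slc2a1, the ubiquitous glucose transporter, rose by 0.42 ± 0.11 (adjusted p = 0.0143), while the muscle genes Hk2, Pfkm, Ldhb and Pygm were among the 5 that fell, and 2 of the 23 passed in the 8-mouse fit without LLC replicate 3. Leaving out one of the other mice gave 11 to 17 calls for fatty acid oxidation and 4 to 10 (4 without LLC 1, 5 without Control 3 or Control 5) for glycolysis.

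**Figure D2:**
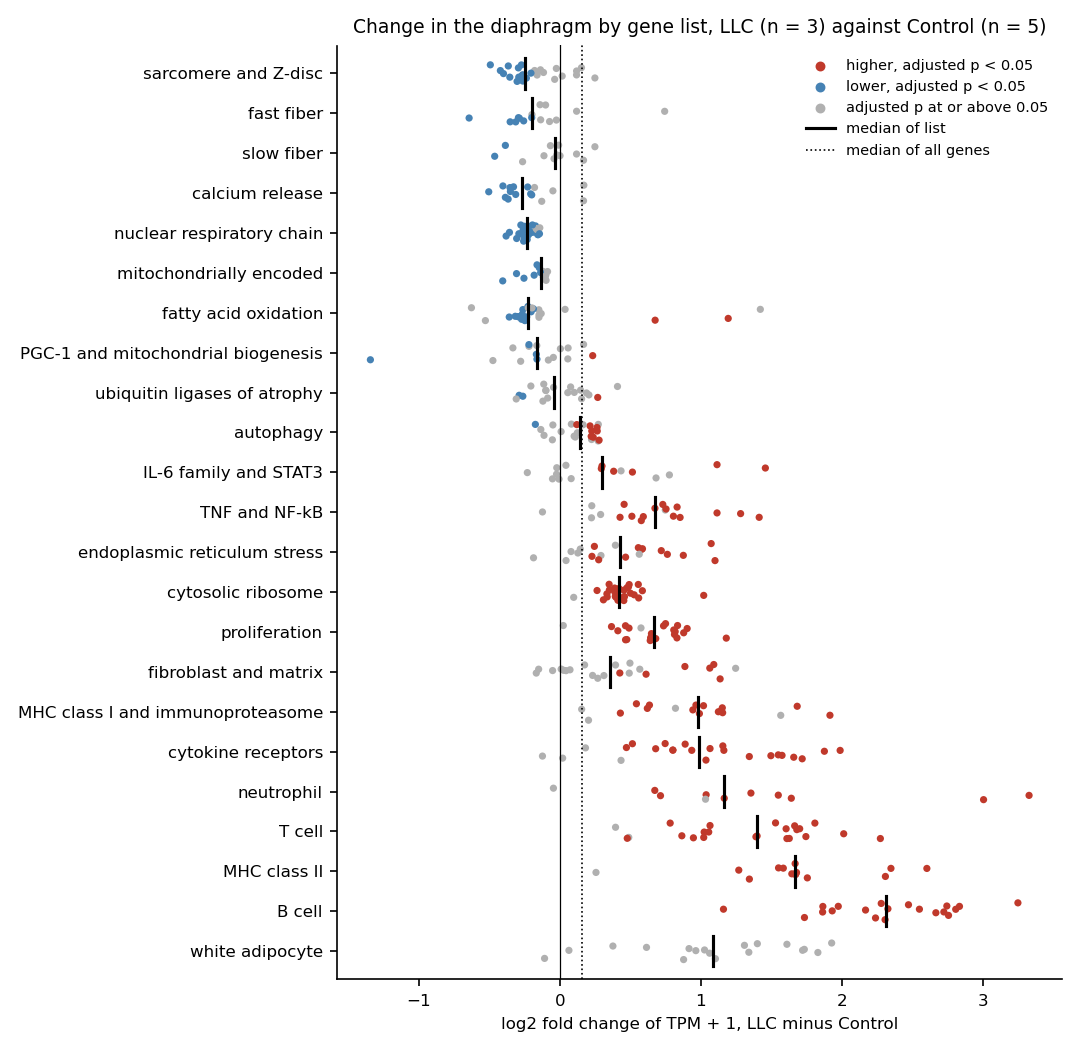
Change of each tested gene (points) in 23 gene lists, as the log2 fold change of TPM + 1 from 5 Control to 3 LLC mice (horizontal axis), with red for higher and blue for lower genes at an adjusted p under 0.05, gray for the rest, a black bar for the median of the list and a dotted line for the median of all genes (0.16). The medians of the contractile and respiratory lists lie left of 0, and those of antigen presentation and lymphocytes lie at medians of 0.98 to 2.32.

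The standard markers of muscle protein breakdown did not separate the groups. Fbxo32 (chromosome 15, 58175879 to 58214932) was at 92.5, 70.5, 73.7, 87.2 and 93.1 TPM in Control and 73.2, 98.5 and 71.8 TPM in LLC. Trim63 (chromosome 4, 134315120 to 134329629) was at 101, 115, 80.2, 81.1 and 119 TPM in Control and 75.2, 104 and 96.7 TPM in LLC. LLC replicate 2 was the highest of the LLC mice in both genes, and the groups overlapped. The changes were -0.044 ± 0.17 for Fbxo32 and -0.099 ± 0.24 for Trim63 (adjusted p = 0.857 and 0.762). Among 19 tested ubiquitin ligases linked to atrophy 1 rose and 2 fell (median -0.044). Trim55, a sarcomeric relative of Trim63, was at 40.9, 42.7, 46.1, 46.6 and 47.5 TPM in Control and 35.6, 39.7 and 34.2 TPM in LLC and fell by 0.29 ± 0.067 (adjusted p = 0.0113). Ube4b, a ubiquitin chain elongation factor, was at 12.4, 12.2, 11.6, 12.2 and 11.05 TPM in Control and 15.6, 12.9 and 15.2 TPM in LLC and rose by 0.27 ± 0.084 (adjusted p = 0.0249). None of the 19 passed in the 8-mouse fit without LLC replicate 3. From 1 to 6 (1 without Control 5, 6 without LLC 2) were called over the other leave-outs.

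Other routes of protein breakdown showed small changes. Of 22 autophagy genes 8 rose and 1 fell, at a median of 0.15 that is no higher than that of all genes and that turned negative after median-ratio scaling and quantile normalization. Gabarap, a ubiquitin-like protein of the autophagosome, was at 153, 162, 138, 143 and 157 TPM in Control and 179.7, 178 and 185 TPM in LLC and rose by 0.27 ± 0.054 (adjusted p = 0.00969). Atg7, the activating enzyme of that conjugation, rose by 0.28 ± 0.092 (adjusted p = 0.0305), and this turned after quantile normalization. Of 26 proteasome genes 10 rose and 0 fell (median 0.077, negative under each of the 3 other scalings). Psmd4, the ubiquitin receptor, rose by 0.20 ± 0.055 (adjusted p = 0.0165) and Psmb1, a core subunit, by 0.19 ± 0.057 (adjusted p = 0.0211), both with a direction that turned after median-ratio scaling. 5 autophagy genes and 2 proteasome genes passed in the 8-mouse fit without LLC replicate 3. The range over the other leave-outs was 4 to 9 (4 without Control 5 or LLC 1) for autophagy and 6 to 12 (6 without LLC 1) for the proteasome.

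In the list of FoxO and insulin signaling 1 gene rose and 1 fell of 17 tested (median 0.042, negative under the 3 other scalings). Each is 5.88% of the list, against 29.7% higher and 6.02% lower over all genes. Foxo1, which activates Fbxo32 and Trim63, was at 7.85, 10.5, 8.02, 6.66 and 14.02 TPM in Control and 10.4, 8.83 and 11.4 TPM in LLC with overlap (change 0.14 ± 0.21, adjusted p = 0.619), and its sign turned after median-ratio scaling and quantile normalization. Foxo4 fell by 0.19 ± 0.056 (adjusted p = 0.0181), and Akt1, the kinase that restrains FoxO factors, rose by 0.21 ± 0.071 (adjusted p = 0.0333). None of 16 glucocorticoid target genes passed in limma in either direction (median 0.16, the same as over all genes), while unadjusted p-values under 0.05 were found for 2 of them and the 8-mouse fit called 1. No gene of either list passed in the 8-mouse fit without LLC replicate 3. Leaving out one of the other mice gave 0 to 3 (0 without LLC 1, 1 without Control 1 or Control 4) and 0 to 2 (1 without LLC 2, 2 without Control 2) calls.

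Of 16 tested genes of the myostatin and activin pathway 6 rose and 1 fell (median 0.15, negative after median-ratio scaling and quantile normalization). Mstn, myostatin, a muscle-derived inhibitor of muscle growth (chromosome 1, 53061640 to 53068079), was at 29.0, 21.5, 19.6, 20.8 and 18.1 TPM in Control and 15.1, 12.1 and 14.2 TPM in LLC. All LLC values lay below the Control values and Mstn fell by 0.61 ± 0.23 (adjusted p = 0.0456). This call was lost in the fit over 17 mice whichever of the 8 mice was left out (adjusted p from 0.0519 to 0.12). Its binding antagonist Fst, follistatin, was at 4.14, 5.16, 4.77, 4.91 and 4.36 TPM in Control and 7.70, 5.61 and 7.64 TPM in LLC and rose by 0.49 ± 0.11 (adjusted p = 0.0112). Tgfb1, a growth factor of fibrosis and immune control, was at 13.004, 13.95, 9.79, 10.1 and 10.99 TPM in Control and 18.1, 18.8 and 21.7 TPM in LLC and rose by 0.72 ± 0.21 (adjusted p = 0.0193). In the 8-mouse fit without LLC replicate 3, 3 of the 16 genes passed, and the adjusted p was 0.0463 for Mstn and 0.0526 for Fst. Leaving out one of the other mice gave 2 to 7 (2 without LLC 1, 3 without Control 3 or Control 4, 4 without Control 5) calls.

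Of 16 tested genes of the IL-6 family and STAT3, 6 rose (37.5%, against 29.7% of all genes) and 0 fell (median 0.30, against 0.16 over all genes). The ligand Il6 itself was below the filter, at most at 0.213 TPM in these 8 mice. Stat3, the transcription factor of this pathway (chromosome 11, 100885098 to 100939540), was at 22.8, 22.6, 21.4, 20.6 and 21.7 TPM in Control and 28.6, 26.6 and 31.2 TPM in LLC, with every LLC value above every Control value, and rose by 0.38 ± 0.091 (adjusted p = 0.0118). Serpina3n, a secreted protease inhibitor induced by STAT3, was at 10.97, 12.7, 8.22, 7.48 and 8.32 TPM in Control and 28.7, 25.5 and 28.3 TPM in LLC and rose by 1.46 ± 0.30 (adjusted p = 0.00996). Bcl3, a nuclear partner of NF-kB, was at 5.03, 3.77, 2.09, 2.51 and 3.50 TPM in Control and 8.58, 7.39 and 8.77 TPM in LLC and rose by 1.115 ± 0.29 (adjusted p = 0.0136). Socs3, the feedback inhibitor, was at 5.52, 8.31, 4.44, 5.25 and 13.3 TPM in Control and 8.97, 14.7 and 11.7 TPM in LLC with overlap (change 0.68 ± 0.35, adjusted p = 0.134), and the receptor Il6ra had a change of 0.43 ± 0.18 (adjusted p = 0.0694). 6 of the 16 genes passed in the 8-mouse fit without LLC replicate 3. From 4 to 7 genes were called over the other leave-outs.

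In the list of TNF and NF-kB 14 of 19 tested genes rose and 0 fell (median 0.68). Tnf, which met the filter only with the LLC mice, was at 0.995, 0.871, 0.510, 1.03 and 0.253 TPM in Control and 2.32, 1.31 and 2.04 TPM in LLC. Its values did not overlap, which the filter favors, and it lay just outside the threshold (change 0.75 ± 0.28, adjusted p = 0.0506). Of the other 18 genes of the list 14 rose. Nfkbie, an inhibitor protein that NF-kB itself induces, was at 4.50, 4.32, 2.62, 2.31 and 1.45 TPM in Control and 8.80, 8.45 and 10.8 TPM in LLC and rose by 1.41 ± 0.42 (adjusted p = 0.0201). Traf1, an adaptor of TNF receptors, was at 1.17, 1.88, 0.6249, 0.768 and 0.471 TPM in Control and 3.28, 3.40 and 4.46 TPM in LLC and rose by 1.28 ± 0.35 (adjusted p = 0.0161). Control replicate 5, which had the fewest lymphocyte transcripts, was the lowest of all mice in these 3 genes. 12 of the 19 genes passed in the 8-mouse fit without LLC replicate 3. From 10 to 14 genes were called over the other leave-outs. With the mean log2 level of the B cell list as a covariate the median of the list was 0.18.

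Of 16 acute phase genes 3 rose and 0 fell (median 0.37). Saa3, the serum amyloid A made outside the liver (chromosome 7, 46711998 to 46715700), was at 9.29, 3.73, 8.26, 21.4 and 4.91 TPM in Control and 74.0, 51.4 and 35.4 TPM in LLC. The lowest LLC mouse lay above the highest Control mouse, and Saa3 rose by 2.54 ± 0.58 (adjusted p = 0.0112). Of 16 immediate early genes 1 rose and 0 fell (median 0.29), namely Myc, the growth regulator, at 3.13, 4.03, 2.66, 1.65 and 2.11 TPM in Control and 6.18, 5.29 and 6.14 TPM in LLC (change 0.92 ± 0.26, adjusted p = 0.0186). Of 17 clock genes 1 fell (5.88%, against 6.02% of all genes, median -0.085), a share that does not set the list apart. This was Nr1d2, a transcriptional repressor, which fell by 0.40 ± 0.11 (adjusted p = 0.018), and the labels give no time of dissection. 3 acute phase genes, 1 immediate early gene and 0 clock genes passed in the 8-mouse fit without LLC replicate 3. Leaving out one of the other mice gave 2 to 3, 0 to 2 (0 without LLC 1, 2 without Control 1 or Control 2 or LLC 2) and 1 calls.

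The endoplasmic reticulum folds secreted proteins, and unfolded protein raises its chaperones through a stress element in their promoters. Of 20 tested genes of this response 12 rose and 0 fell (median 0.43). The element, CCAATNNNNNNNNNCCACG on either strand, was found within 250 bases before the start of 8 of the 17 genes of the list with a promoter sequence, against 35 of 27025 genes in all (0.13%). Of the 8 genes with the element 6 were called, and of the 9 without it 4 were. The 150 bases before the start (RefSeq, GRCm38.p6, 5′ to 3′ on the strand of the gene) are shown for 4 of them because they share the element. Capitals mark the element, which reads in reverse in the promoters of Creld2 and Hsp90b1. They lie at chr15:88819496-88819645 (plus strand), chr19:6046426-6046575 (plus), chr10:86705445-86705594 (minus) and chr2:34771940-34772089 (plus).
Creld2: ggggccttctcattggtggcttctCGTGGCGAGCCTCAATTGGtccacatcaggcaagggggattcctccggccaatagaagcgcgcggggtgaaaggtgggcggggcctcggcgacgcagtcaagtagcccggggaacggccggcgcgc
Syvn1: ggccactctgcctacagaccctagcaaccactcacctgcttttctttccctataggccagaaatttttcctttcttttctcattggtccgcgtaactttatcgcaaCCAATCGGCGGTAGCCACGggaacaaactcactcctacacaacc
Hsp90b1: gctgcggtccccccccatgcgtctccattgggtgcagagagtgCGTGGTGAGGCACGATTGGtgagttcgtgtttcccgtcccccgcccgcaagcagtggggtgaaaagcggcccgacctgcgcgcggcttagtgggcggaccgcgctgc
Hspa5: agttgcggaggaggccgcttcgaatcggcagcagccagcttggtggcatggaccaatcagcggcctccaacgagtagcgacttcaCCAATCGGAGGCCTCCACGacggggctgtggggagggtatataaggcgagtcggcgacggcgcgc

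Creld2, a chaperone-like protein of the reticulum, was at 11.4, 18.9, 11.97, 8.68 and 12.99 TPM in Control and 19.4, 26.5 and 25.7 TPM in LLC and rose by 0.88 ± 0.33 (adjusted p = 0.0488). Its call held in 1 of 8 leave-outs over 17 mice and in 7 of 8 over the 8 mice. Syvn1, the ubiquitin ligase that clears misfolded proteins from the reticulum, was at 11.9, 12.8, 10.1, 10.2 and 10.5 TPM in Control and 18.7, 17.1 and 21.1 TPM in LLC and rose by 0.72 ± 0.18 (adjusted p = 0.0132). Hsp90b1, the chaperone GRP94, was at 75.7, 87.2, 90.4, 71.3 and 89.4 TPM in Control and 113, 129 and 132 TPM in LLC and rose by 0.59 ± 0.20 (adjusted p = 0.0379). The LLC values of these 3 genes lay above the Control values, in Creld2 by a narrow margin over Control replicate 2. Hspa5, the master chaperone BiP, was at 88.8, 99.5, 109, 80.8 and 110.1 TPM in Control and 103, 127 and 129 TPM in LLC with overlap and did not pass (change 0.29 ± 0.19, adjusted p = 0.235). The largest changes of the list were in Pdia4, a disulfide isomerase, at 21.6, 29.0, 17.8, 16.6 and 18.6 TPM in Control and 43.1, 42.9 and 48.5 TPM in LLC (change 1.10 ± 0.31, adjusted p = 0.0169), and in Sdf2l1, a chaperone partner, with 1.07 ± 0.34 (adjusted p = 0.0249). 10 of the 20 genes passed in the 8-mouse fit without LLC replicate 3. From 5 to 12 (5 without LLC 1, 7 without Control 4) genes were called over the other leave-outs. Plasma cells, whose secretion depends on this system, moved in the same mice. The summed plasma cell markers were at 148, 404, 152, 145 and 97.7 TPM in Control and 477, 657 and 471 TPM in LLC, and their part in the change was not tested.

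Of 28 cytosolic ribosomal protein genes 27 rose and 0 fell (median 0.42), and 24 of the 28 passed in the 8-mouse fit without LLC replicate 3. Rpl3, which muscle replaces with its paralog Rpl3l, was at 81.5, 101, 67.9, 69.9 and 59.1 TPM in Control and 152, 132 and 175 TPM in LLC and rose by 1.02 ± 0.25 (adjusted p = 0.0128), the largest change of the list. Rps16 was at 245, 278, 211, 218 and 218 TPM in Control and 340.1, 321 and 391 TPM in LLC and rose by 0.59 ± 0.13 (adjusted p = 0.0111). Of 22 proliferation genes 20 rose and 0 fell (median 0.67), and 15 of the 22 passed in the 8-mouse fit without LLC replicate 3. The filter was met by 6 of the 22 only with the LLC mice, and of the other 16 genes 15 rose. Mki67, the marker of cycling cells, was at 1.03, 1.41, 0.759, 0.921 and 0.292 TPM in Control and 2.40, 4.12 and 3.20 TPM in LLC and rose by 1.18 ± 0.35 (adjusted p = 0.02). Mcm5, a part of the replicative helicase, was at 2.29, 2.20, 1.99, 1.71 and 1.32 TPM in Control and 3.71, 4.58 and 4.94 TPM in LLC and rose by 0.90 ± 0.25 (adjusted p = 0.0159). In both the LLC values lay well above the Control values, and Control replicate 5 was the lowest mouse. Of 16 genes of polyamine metabolism and amino acid stress 6 rose and 0 fell (median 0.53). Slc3a2, the heavy chain of amino acid transporters, was at 18.8, 22.3, 15.3, 15.1 and 18.9 TPM in Control and 33.8, 31.1 and 30.9 TPM in LLC and rose by 0.80 ± 0.17 (adjusted p = 0.0102), Sesn2, a leucine-sensitive stress protein, rose by 0.83 ± 0.24 (adjusted p = 0.0196), and 3 of the 16 passed in the 8-mouse fit without LLC replicate 3. From 26 to 27 ribosomal, 12 to 20 (12 without LLC 2, 13 without Control 5 or LLC 1) proliferation and 3 to 8 (3 without LLC 1) polyamine and amino acid genes were called over the other leave-outs.

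Immunoglobulin and B cell genes had the highest medians of the 51 lists. Of 20 tested B cell markers 20 rose (median 2.32), 1 of which met the filter only with the LLC mice. The number called was 7 with a pseudocount of 0.1 TPM, 11 after rescaling without mitochondrially encoded genes, 13 with no filter on low values, 14 with median-ratio scaling and 0 with the replicate number added to the model as a block, with a median above 0 in each. Their summed level was 146, 185, 41.2, 56.4 and 4.32 TPM in Control and 461, 429 and 556 TPM in LLC. The Control mice alone spanned more than a 30-fold range, with Control replicate 5 far below the others and at 0 for 1 of the markers, and every LLC mouse lay above all Control mice. Cd79a, a signaling chain of the B cell receptor (chromosome 7, 24897381 to 24902197), was at 28.7, 36.8, 7.51, 10.4 and 0.199 TPM in Control and 97.6, 90.6 and 110.4 TPM in LLC and rose by 3.25 ± 1.17 (adjusted p = 0.0429). Ms4a1 (CD20) was at 6.67, 6.49, 1.63, 2.37 and 0.0134 TPM in Control and 18.6, 15.9 and 20.9 TPM in LLC and rose by 2.47 ± 0.84 (adjusted p = 0.0339). Both genes ordered the Control mice alike, with replicates 1 and 2 above 3 and 4 and replicate 5 lowest. Each call held in 2 of 8 leave-outs over 17 mice, and over the 8 mice in 3 of 8 for Cd79a and 6 of 8 for Ms4a1. Pou2af1, a coactivator of immunoglobulin genes, rose by 2.76 ± 1.004 (adjusted p = 0.0444), and Cr2, the complement receptor of mature B cells, by 1.74 ± 0.49 (adjusted p = 0.0179). 9 of the 20 markers passed in the 8-mouse fit without LLC replicate 3. From 4 to 20 (4 without LLC 1, 5 without Control 5, 10 without Control 3 or Control 4 or LLC 2) markers were called over the other leave-outs, and the median without Control replicate 5 was 1.97.

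Of 10 plasma cell markers 7 rose and 0 fell (median 1.19). Derl3, a protein of the reticulum of secretory cells, was at 1.37, 4.45, 1.31, 0.988 and 0.0929 TPM in Control and 6.45, 10.7 and 7.30 TPM in LLC and rose by 1.96 ± 0.64 (adjusted p = 0.0295). Irf4, the plasma cell transcription factor, was at 2.32, 4.21, 1.68, 2.22 and 1.57 TPM in Control and 7.89, 7.89 and 7.49 TPM in LLC and rose by 1.41 ± 0.46 (adjusted p = 0.0296). Of 11 immunoglobulin constant region genes 4 rose and 0 fell (median 3.21), although 10 had no overlap. Ighm was at 449.9, 1976, 469.7, 527 and 12.97 TPM in Control and 2730.1, 4014 and 2264 TPM in LLC (change 3.21 ± 1.46, adjusted p = 0.0946). Igkc was at 728, 4283, 801, 804 and 4.75 TPM in Control and 5511, 7754 and 4723 TPM in LLC (change 3.84 ± 1.88, adjusted p = 0.117). Control replicate 2 was near the LLC range in these abundant chains and Control replicate 5 near 0, so that the Control mice spanned most of the range. Jchain, which joins secreted IgM and IgA, had a change of 3.24 ± 1.57 (adjusted p = 0.114). Without Control replicate 5 the changes of Ighm, Igkc and Jchain were 2.09, 2.30 and 2.13, and without Control replicate 2 they were 3.87, 4.68 and 3.97. The switched isotypes Ighg2c, at 6.57, 2.75, 10.1, 5.22 and 0.562 TPM in Control and 56.6, 312 and 438 TPM in LLC, and Ighg2b, at 1.34, 13.4, 3.45, 2.18 and 0 TPM in Control and 19.3, 94.3 and 106 TPM in LLC, passed (changes 5.32 ± 1.54 and 4.11 ± 1.20, adjusted p = 0.0188 and 0.0194), with LLC replicate 1 the lowest LLC mouse in both. Over all 189 tested immunoglobulin and T cell receptor genes 94 rose and 0 fell, and reads of near-identical segments may have been divided between copies. The filter was met by 25 of the 189 only with the LLC mice, and of the other 164 genes 80 rose. In the 8-mouse fit without LLC replicate 3, 67 of the 189 passed, and the fits that left out another mouse called 50 to 109 (50 without Control 5, 55 without LLC 1, 56 without LLC 2). 7 plasma cell and 4 constant region genes passed in the 8-mouse fit without LLC replicate 3. From 3 to 8 (3 without LLC 1 or LLC 2) and 3 to 6 were called over the other leave-outs.

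Of 23 T cell markers 21 rose and 0 fell (median 1.40). The filter was met by 7 of the 23 only with the LLC mice, and of the other 16 markers 15 rose. Their summed level was 33.8, 58.3, 16.1, 22.1 and 9.87 TPM in Control and 91.8, 103 and 148 TPM in LLC. Cd3e, a chain of the receptor complex, was at 0.831, 1.82, 0.233, 0.752 and 0.173 TPM in Control and 3.07, 3.304 and 5.44 TPM in LLC and rose by 1.53 ± 0.41 (adjusted p = 0.0153). Trbc2, a receptor constant region, was at 2.24, 9.57, 1.57, 2.37 and 0.598 TPM in Control and 13.9, 14.002 and 19.4 TPM in LLC and rose by 2.27 ± 0.73 (adjusted p = 0.0273), and Trac by 2.01 ± 0.59 (adjusted p = 0.02). The mice kept nearly the same order as in the B cell markers. All 5 tested NK and cytotoxic cell markers rose (median 1.000), 2 of which met the filter only with the LLC mice. Ccl5, a chemokine of these cells, was at 3.40, 4.92, 0.653, 1.63 and 0.302 TPM in Control and 8.39, 9.51 and 17.5 TPM in LLC and rose by 2.17 ± 0.60 (adjusted p = 0.0166), and Nkg7, a granule protein, by 1.504 ± 0.38 (adjusted p = 0.0133). The other 9 listed NK genes, Gzmb and Prf1 among them, were below the filter. 12 T cell markers and 1 NK marker passed in the 8-mouse fit without LLC replicate 3. From 8 to 22 (8 without Control 5, 9 without Control 3, 12 without LLC 1, 13 without Control 4) T cell markers and 3 to 5 (3 without Control 3 or Control 4 or Control 5 or LLC 2) NK markers were called over the other leave-outs.

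Of 11 tested neutrophil markers 9 rose and 0 fell (median 1.17), and the same number passed in the 8-mouse fit without LLC replicate 3. S100a9, a subunit of calprotectin (chromosome 3, 90692632 to 90695721), was at 7.55, 0.532, 5.36, 1.99 and 4.996 TPM in Control and 25.5, 61.7 and 48.0 TPM in LLC and rose by 3.33 ± 0.85 (adjusted p = 0.0135). S100a8, its partner, was at 3.67, 0.171, 2.41, 0.692 and 3.76 TPM in Control and 12.2, 30.6 and 24.1 TPM in LLC and rose by 3.01 ± 0.76 (adjusted p = 0.0133). Here Control replicate 2, high in immunoglobulin, was the lowest mouse, so the order of the Control mice was not that of the lymphocyte genes. Il1b, an inflammatory cytokine, was at 0.626, 0.208, 0.285, 0.168 and 0.369 TPM in Control and 1.37, 3.81 and 2.41 TPM in LLC and rose by 1.36 ± 0.27 (adjusted p = 0.00942). The granule genes Mmp8, Ngp, Camp and Ltf and the surface marker Ly6g were below the filter, Ly6g at no more than 0.263 TPM in these mice. With the B cell level as a covariate the median of the neutrophil list was 1.04, against 0.17 for the T cell list. Over the leave-outs other than LLC replicate 3, 6 to 9 neutrophil markers were called.

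Of 20 macrophage and monocyte markers 11 rose and 0 fell (median 0.91). The filter was met by 1 of the 20 only with the LLC mice, and of the other 19 markers 10 rose. The summed level of the 20 was 592, 778, 516, 521 and 458 TPM in Control and 1183, 1329.7 and 1147 TPM in LLC. Adgre1 (F4/80) was at 4.60, 4.96, 4.43, 5.23 and 3.90 TPM in Control and 8.496, 10.7 and 8.60 TPM in LLC, without overlap, and missed the threshold in the fit over 17 mice (change 0.87 ± 0.38, adjusted p = 0.0851) but not over the 8 mice (adjusted p = 0.00424). Ly6c2, a monocyte marker, was at 1.48, 3.40, 1.23, 0.789 and 1.10 TPM in Control and 4.67, 6.16 and 7.65 TPM in LLC and rose by 1.51 ± 0.34 (adjusted p = 0.0112). Timd4, a marker of resident macrophages, was at 3.26, 5.68, 2.10, 2.91 and 0.914 TPM in Control and 8.28, 9.95 and 7.23 TPM in LLC and rose by 1.36 ± 0.49 (adjusted p = 0.0431). Of 8 dendritic cell markers 5 rose and 0 fell (median 0.71), among them Itgax (CD11c), at 1.18, 1.19, 1.04, 0.766 and 0.483 TPM in Control and 2.43, 3.04 and 4.83 TPM in LLC (change 1.18 ± 0.29, adjusted p = 0.0122), and Irf8, a factor of dendritic and B cells, with 1.39 ± 0.40 (adjusted p = 0.0181). The filter was met by 1 of these 8 only with the LLC mice, and of the other 7 markers 4 rose. Of 8 mast cell and eosinophil markers 1 rose, the eosinophil granule protein Prg2 (median 0.53). 13 macrophage, 6 dendritic cell and 0 mast cell and eosinophil markers passed in the 8-mouse fit without LLC replicate 3. Over the other leave-outs the calls were 2 to 11 (2 without LLC 1, 3 without Control 4 or Control 5 or LLC 2, 4 without Control 3, 6 without Control 1) for macrophages, 4 to 5 for dendritic cells and 0 to 1 (0 without Control 1 or Control 3 or Control 4 or Control 5 or LLC 1 or LLC 2) for mast cells and eosinophils.

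**Figure D3:**
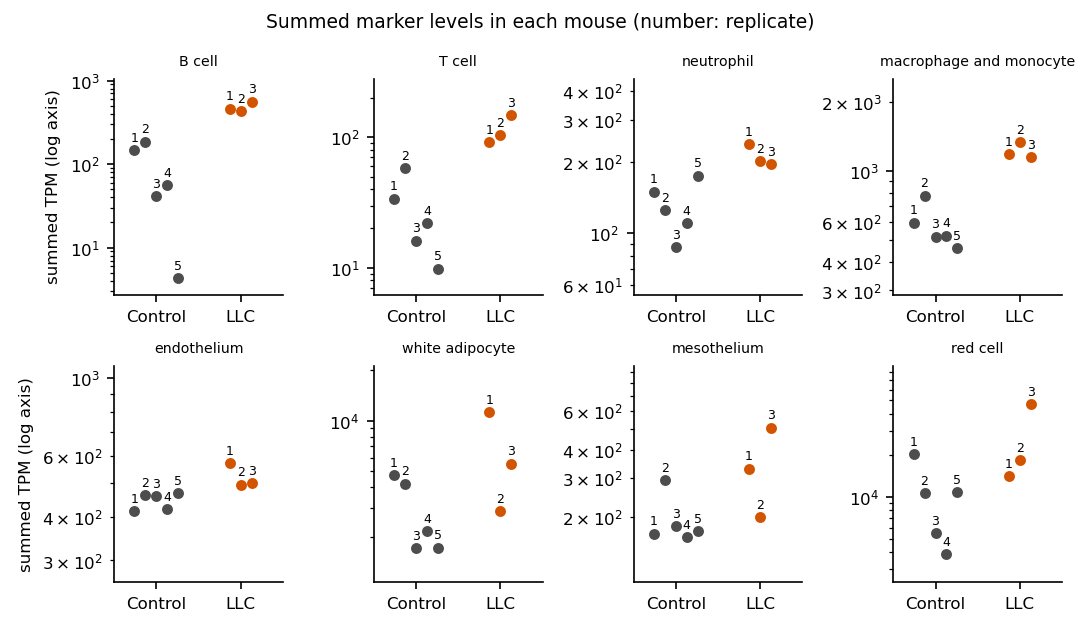
Summed TPM of 8 lists of cell type markers (vertical axes, logarithmic) in each Control and LLC mouse (points, numbered by replicate). B cell, T cell, neutrophil and macrophage sums were higher in all 3 LLC mice than in all 5 Control mice, and those of white adipocytes, mesothelium and red cells overlapped.

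Genes that organize lymphoid tissue rose, 11 of 14 tested with 0 lower (median 1.23). The filter was met by 1 of the 14 only with the LLC mice, and of the other 13 genes 10 rose. Cxcl13, the chemokine that draws B cells into follicles (chromosome 5, 95956951 to 95961068), was at 32.7, 85.2, 13.9, 15.1 and 0.864 TPM in Control and 180.2, 171 and 85.1 TPM in LLC and rose by 3.06 ± 1.11 (adjusted p = 0.0435). Control replicate 2 reached the level of LLC replicate 3. Ltb, lymphotoxin beta, was at 8.92, 12.6, 1.63, 3.01 and 0.601 TPM in Control and 26.4, 21.3 and 30.0 TPM in LLC and rose by 2.51 ± 0.86 (adjusted p = 0.0355). Glycam1, a mucin of high endothelial venules, was at 0.700, 2.73, 0, 0 and 0 TPM in Control and 8.34, 5.04 and 9.52 TPM in LLC and rose by 2.54 ± 0.69 (adjusted p = 0.0159). It was at 0 in 3 of the 5 Control mice. Of 21 chemokine genes 9 rose and 0 fell (median 0.54), and Ccl8, a monocyte attractant, was at 3.19, 9.93, 1.80, 2.27 and 1.78 TPM in Control and 14.9, 23.3 and 11.1 TPM in LLC (change 2.03 ± 0.52, adjusted p = 0.0137). The filter was met by 1 of the 21 only with the LLC mice, and of the other 20 chemokine genes 8 rose. In the 8-mouse fit without LLC replicate 3, 6 genes of each of these lists passed, and the adjusted p of Cxcl13 was 0.1. From 3 to 11 (3 without LLC 1, 6 without Control 3 or Control 4 or LLC 2, 7 without Control 5) lymphoid and 4 to 10 (4 without LLC 1, 5 without LLC 2) chemokine genes were called over the other leave-outs.

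Of 24 tested cytokine receptors 20 rose and 0 fell (median 0.99), and 19 of the 24 passed in the 8-mouse fit without LLC replicate 3. The filter was met by 2 of the 24 only with the LLC mice, and of the other 22 receptors 19 rose. Csf2rb, the shared chain of the receptors for GM-CSF, IL-3 and IL-5 (chromosome 15, 78325752 to 78353847), was at 3.45, 4.06, 1.89, 1.97 and 1.52 TPM in Control and 11.8, 10.97 and 12.3 TPM in LLC. All LLC values lay far above the Control values, and Csf2rb rose by 1.88 ± 0.39 (adjusted p = 0.00996). Il21r, a receptor of B and T cells, was at 2.50, 3.07, 0.792, 1.10 and 0.199 TPM in Control and 7.23, 7.58 and 9.73 TPM in LLC and rose by 1.99 ± 0.59 (adjusted p = 0.0201). Over the leave-outs other than LLC replicate 3, 16 to 21 receptors were called.

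Antigen presentation rose in both classes. Of 14 MHC class II genes 13 rose and 0 fell (median 1.67), and 13 of the 14 passed in the 8-mouse fit without LLC replicate 3. Cd74, the invariant chain, was at 329, 420.5, 218, 269 and 187 TPM in Control and 878, 876 and 1028 TPM in LLC and rose by 1.76 ± 0.48 (adjusted p = 0.0165). H2-DMb2 and H2-Oa, which govern peptide loading, rose by 2.60 ± 0.82 and 2.35 ± 0.65 (adjusted p = 0.0259 and 0.0167). Both are strong in B cells, and the B cell level moved in the same mice. Of 18 genes of MHC class I and the immunoproteasome 14 rose and 0 fell (median 0.98), and 12 of the 18 passed in the 8-mouse fit without LLC replicate 3. Tap1, the peptide transporter, was at 5.14, 6.24, 4.37, 6.19 and 2.60 TPM in Control and 11.6, 11.1 and 12.5 TPM in LLC and rose by 1.15 ± 0.35 (adjusted p = 0.0235). Psmb9, an immunoproteasome subunit whose gene lies beside Tap1 on chromosome 17, was at 4.88, 5.95, 3.48, 4.61 and 2.12 TPM in Control and 10.3, 9.81 and 9.82 TPM in LLC and rose by 1.125 ± 0.35 (adjusted p = 0.0235). Ubd, a ubiquitin-like modifier, was at 1.11, 1.66, 0.135, 0.215 and 0.0445 TPM in Control and 4.99, 3.47 and 6.04 TPM in LLC and rose by 1.92 ± 0.55 (adjusted p = 0.0188), and H2-Q7, one of a family of near-identical genes whose reads may be shared, by 1.68 ± 0.63 (adjusted p = 0.0481). The H2-Q7 call held in 1 of 8 leave-outs over 17 mice and in 8 of 8 over the 8 mice. Over the leave-outs other than LLC replicate 3, 9 to 13 class II and 2 to 16 (2 without LLC 1, 6 without Control 5) class I genes were called.

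Interferons act through short repeats of GAAA in the promoters of their targets. The core GAAANNGAAA, on either strand, was found within 250 bases before the start in 9 of the 17 type I interferon genes with a promoter sequence and in 936 of 27025 genes in all (3.46%). It was also found in 2 of 16 MHC class I promoters, those of H2-T23 and B2m. The promoters of Oas1a, Isg15 and Ifit1 are shown as in the stress element case, with overlapping or paired cores in capitals, because all 3 hold the core. They lie at chr5:120907526-120907675 (minus strand), chr4:156200819-156200968 (minus) and chr19:34640739-34640888 (plus).
Oas1a: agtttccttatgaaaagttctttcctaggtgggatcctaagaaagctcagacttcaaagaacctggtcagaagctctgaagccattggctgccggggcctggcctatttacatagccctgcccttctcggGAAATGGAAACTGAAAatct
Isg15: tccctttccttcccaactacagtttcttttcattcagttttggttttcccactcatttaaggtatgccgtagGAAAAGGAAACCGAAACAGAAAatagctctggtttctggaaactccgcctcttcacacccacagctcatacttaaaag
Ifit1: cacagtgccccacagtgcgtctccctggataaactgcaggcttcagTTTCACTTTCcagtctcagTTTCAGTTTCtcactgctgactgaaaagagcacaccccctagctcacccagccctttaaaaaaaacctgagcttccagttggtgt

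Of 20 tested type I interferon genes 9 rose and 0 fell (median 0.42). The filter was met by 1 of the 20 only with the LLC mice, and of the other 19 genes 8 rose. Of the genes with the core 4 of 8 tested were called, and of those without it 3 of 8. Oas1a, a sensor of double-stranded RNA, was at 2.81, 2.50, 2.70, 2.06 and 1.56 TPM in Control and 5.21, 4.72 and 5.70 TPM in LLC and rose by 0.91 ± 0.22 (adjusted p = 0.0128). Isg15, a ubiquitin-like protein, was at 9.999, 6.40, 7.02, 7.67 and 7.50 TPM in Control and 10.9, 11.4 and 15.2 TPM in LLC and rose by 0.63 ± 0.19 (adjusted p = 0.0231). Ifit1, a sensor of foreign RNA ends, was at 3.28, 3.18, 3.26, 4.22 and 2.76 TPM in Control and 4.29, 3.63 and 3.70 TPM in LLC with overlap and did not pass (change 0.17 ± 0.16, adjusted p = 0.406). Irf7, the amplifier of the type I response, was at 5.45, 4.40, 4.55, 4.68 and 3.67 TPM in Control and 7.95, 8.25 and 9.09 TPM in LLC and rose by 0.77 ± 0.14 (adjusted p = 0.00897). Of 17 genes of the interferon gamma response 4 rose and 0 fell (median 0.36), among them Cxcl10, a chemokine for T cells, with 0.68 ± 0.23 (adjusted p = 0.0342). 8 type I and 2 interferon gamma genes passed in the 8-mouse fit without LLC replicate 3. From 6 to 10 type I and 0 to 5 (0 without LLC 1, 1 without Control 5, 2 without Control 3) interferon gamma genes were called over the other leave-outs. Other motifs searched in the same windows were the octamer ATTTGCAT, found in 1 of 15 B cell promoters (Vpreb3) and 1.81% of all genes, the CArG box in 3 of 17 sarcomere promoters (Acta1, Ldb3 and Myom1) and 1.62% of all, and TCAAGGTCA, the element of estrogen-related receptors, in 0 of 21 respiratory chain promoters and 0.422% of all.

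Vessel genes were split into those of endothelium in general and those of activated venules. Of 18 endothelial genes 5 rose and 0 fell, at a median of 0.092 that was below that of all genes and turned negative under the 3 other scalings. Pecam1 (CD31) was at 46.1, 53.9, 55.9, 50.7 and 53.4 TPM in Control and 65.2, 60.1 and 64.1 TPM in LLC and rose by 0.28 ± 0.067 (adjusted p = 0.0122). Vwf, the clotting factor of endothelium, was at 5.32, 5.52, 5.32, 6.14 and 6.07 TPM in Control and 10.7, 9.28 and 10.1 TPM in LLC and rose by 0.72 ± 0.13 (adjusted p = 0.00825), and Plvap, of fenestrated vessels, was at 22.96, 32.6, 17.9, 16.8 and 21.1 TPM in Control and 65.3, 44.3 and 51.9 TPM in LLC and rose by 1.26 ± 0.29 (adjusted p = 0.0112). Of 11 genes of activated venules and leukocyte adhesion 8 rose and 0 fell (median 0.92). Ackr1, a chemokine receptor of venules, was at 2.38, 2.99, 1.46, 2.05 and 2.56 TPM in Control and 9.64, 7.44 and 6.88 TPM in LLC and rose by 1.46 ± 0.27 (adjusted p = 0.00825). Selplg, a selectin ligand carried by leukocytes, rose by 1.58 ± 0.49 (adjusted p = 0.0246). Of 20 complement genes 7 rose and 0 fell (median 0.78), C4b at 28.9, 52.7, 23.5, 24.5 and 18.8 TPM in Control and 112, 66.7 and 87.6 TPM in LLC (change 1.61 ± 0.56, adjusted p = 0.0365). 2 endothelial, 8 venule and 13 complement genes passed in the 8-mouse fit without LLC replicate 3. Over the other leave-outs the calls were 4 to 5 for endothelium, 5 to 9 (5 without Control 5 or LLC 1) for venules and 1 to 10 (1 without LLC 1, 2 without Control 3 or Control 4 or Control 5, 4 without Control 1 or LLC 2) for complement.

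Of 22 genes of fibroblasts and matrix 6 rose (27.3%, against 29.7% of all genes) and 0 fell (median 0.35), and 9 passed in the 8-mouse fit without LLC replicate 3. From 6 to 7 were called over the other leave-outs. Postn, periostin, a matrix protein of repair (chromosome 3, 54361109 to 54391037), was at 4.98, 4.27, 5.36, 4.25 and 4.04 TPM in Control and 9.80, 9.46 and 15.2 TPM in LLC and rose by 1.14 ± 0.15 (adjusted p = 0.0046). Ly6a (Sca-1), of fibroblast progenitors, vessels and lymphocytes (chromosome 15, 74994877 to 74998031), was at 123, 145, 132, 113 and 127 TPM in Control and 213, 253 and 246 TPM in LLC and rose by 0.89 ± 0.13 (adjusted p = 0.00572). Both passed with all mice and with each mouse left out. Tnc, tenascin C, which met the filter only with the LLC mice, was at 0.834, 0.765, 0.634, 0.489 and 0.703 TPM in Control and 1.51, 1.80 and 5.56 TPM in LLC, with LLC replicate 3 well above the other LLC mice, and rose by 1.09 ± 0.26 (adjusted p = 0.0118). Collagen genes of the list, Col1a1, Col1a2 and Col3a1 among them, were not among the 6.

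**Figure D4:**
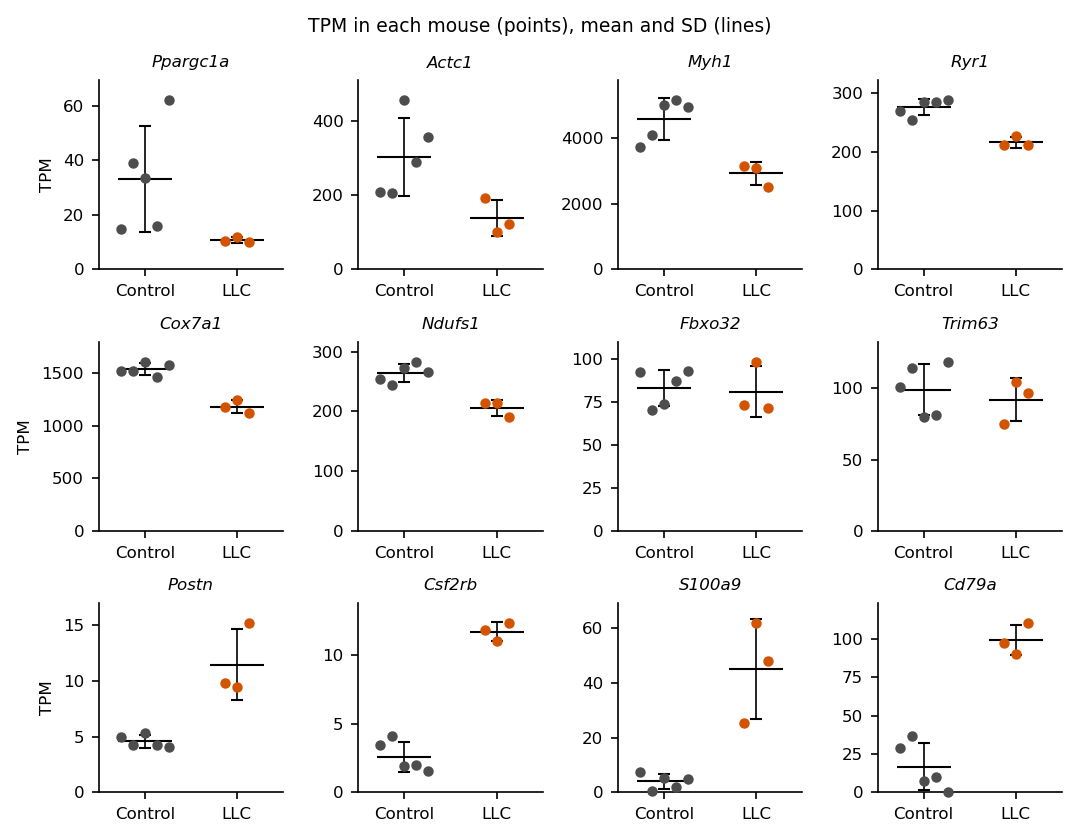
TPM of 12 genes (vertical axes, starting at 0) in each mouse (points), with the mean and SD of 5 Control and 3 LLC mice (lines). The groups do not overlap except in Fbxo32 and Trim63.

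The 23 genes that passed in the fit over 17 mice with every mouse and with each of the 8 mice left out were 14 higher and 9 lower. Most of them lay just inside the threshold, with a largest adjusted p over these fits of 0.0474. Of the higher genes, Ablim1, an actin-binding protein (chromosome 19, 57032733 to 57314919), was at 15.5, 16.9, 16.4, 15.7 and 15.97 TPM in Control and 25.6, 25.1 and 27.9 TPM in LLC and rose by 0.67 ± 0.085 (adjusted p = 0.00338). Entpd1 (CD39), which degrades extracellular ATP (chromosome 19, 40612366 to 40741602), was at 6.30, 6.87, 5.94, 5.50 and 6.71 TPM in Control and 10.9, 11.6 and 12.6 TPM in LLC and rose by 0.81 ± 0.11 (adjusted p = 0.0046). Both showed groups far apart and a narrow spread within each. Nepn, a matrix proteoglycan, rose by 0.85 ± 0.12, Pamr1, a secreted protein of regenerating muscle, by 0.97 ± 0.14, Pla1a, a phospholipase, by 0.47 ± 0.096, Pqlc2, a lysosomal amino acid transporter, by 0.49 ± 0.076, and Rasa4, an inhibitor of Ras, by 0.39 ± 0.071. The predicted gene Gm4285, annotated as antisense, rose by 0.57 ± 0.085, where reads of the opposite strand may be included because the use of strand in counting is not known. The immunoglobulin segments Ighv1-5, Ighv1-54, Ighv1-85 and Igkv4-58 were higher by 2.71, 3.42, 2.78 and 2.30. Igkv4-58 was below 1 TPM in every Control mouse and met the filter only with the LLC mice, so that it had to be higher there. With Postn and Ly6a these make up the 14 higher genes.

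Of the 9 lower genes, several encode mitochondrial proteins. Stard7, a lipid transfer protein that supplies mitochondria (chromosome 2, 127270218 to 127298932), was at 112, 110.0, 105, 119 and 109.7 TPM in Control and 89.7, 89.6 and 85.2 TPM in LLC and fell by 0.33 ± 0.041 (adjusted p = 0.00338). Coq9, needed to make coenzyme Q (chromosome 8, 94838321 to 94854895), was at 299, 294, 317, 314 and 316 TPM in Control and 260.2, 261 and 228 TPM in LLC and fell by 0.30 ± 0.047 (adjusted p = 0.00723). Slc25a26, the mitochondrial carrier of S-adenosylmethionine, was at 9.80, 10.7, 11.5, 10.3 and 10.7 TPM in Control and 8.44, 8.23 and 8.21 TPM in LLC and fell by 0.32 ± 0.047 (adjusted p = 0.00615). In each of these genes the LLC mice lay below all Control mice, and in Coq9 LLC replicate 3 lay below the other LLC mice. Ndufaf6, an assembly factor of complex I, fell by 0.31 ± 0.049 (adjusted p = 0.00734), and Cox7a1 is described above. Klhl33, a kelch-family protein, was at 114, 97.7, 107, 117 and 97.6 TPM in Control and 67.6, 66.1 and 58.7 TPM in LLC and fell by 0.72 ± 0.10 (adjusted p = 0.00572). Hsbp1l1, Fam131a and the noncoding A930018M24Rik fell by 0.59 ± 0.072, 0.47 ± 0.084 and 0.74 ± 0.11.

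The largest falls among called genes without overlap beside those of Ppargc1a and Actc1 were in 3 further genes. Cntfr, the receptor for ciliary neurotrophic factor, was at 19.3, 28.2, 24.4, 16.96 and 40.8 TPM in Control and 15.2, 10.4 and 11.9 TPM in LLC and fell by 0.95 ± 0.28 (adjusted p = 0.0202). Alpl, tissue-nonspecific alkaline phosphatase, was at 20.1, 18.9, 16.4, 14.1 and 34.6 TPM in Control and 9.06, 9.70 and 12.4 TPM in LLC and fell by 0.88 ± 0.30 (adjusted p = 0.0337). Mettl21e, a muscle lysine methyltransferase, was at 14.8, 22.2, 21.2, 14.8 and 34.3 TPM in Control and 11.3, 12.9 and 8.35 TPM in LLC and fell by 0.88 ± 0.24 (adjusted p = 0.0163). In each of them Control replicate 5 was the highest mouse. None of the 3 passed in the 8-mouse fit without LLC replicate 3 (adjusted p = 0.0835, 0.0567 and 0.136).

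Tissue that can be carried along in a diaphragm sample varied between mice. The summed white adipocyte markers were at 4722, 4183, 1719.7, 2174 and 1736 TPM in Control and 11198, 2876 and 5517 TPM in LLC, and 0 of 18 markers passed in limma, also when the 8 mice were fitted alone, with 5 at an unadjusted p under 0.05 (median 1.08). Fabp4, the adipocyte fatty acid carrier, was at 1342, 1194, 565, 589.8 and 529 TPM in Control and 2842, 841 and 1321 TPM in LLC, and Adipoq, adiponectin, at 175, 145, 27.6, 50.1 and 26.4 TPM in Control and 436, 94.7 and 218 TPM in LLC. LLC replicate 1 was the highest mouse in both, and LLC replicate 2 lay among the Control mice. Ucp1, the brown fat uncoupler, was at 16.5, 62.3, 0, 0 and 0 TPM in Control and 213, 0.0243 and 5.96 TPM in LLC, high in a few mice of both groups, and of 9 brown adipocyte markers 1 fell, Cpt1b, which muscle expresses (median 0.23, negative after quantile normalization). Mesothelium, the cover of the peritoneal face, gave 1 higher gene, Muc16, of 14 tested (median 0.66), and Msln was at 15.9, 39.5, 26.02, 25.8 and 27.4 TPM in Control and 47.4, 27.6 and 51.3 TPM in LLC with overlap. Red cell transcripts summed to 20313, 10666, 5473, 3849 and 10885 TPM in Control and 14169, 18512 and 46944 TPM in LLC, LLC replicate 3 being far the highest, and 3 of 7 rose without any free of overlap (median 1.40). Alas2, of heme synthesis, was at 60.2, 31.6, 18.9, 11.6 and 34.9 TPM in Control and 49.9, 65.7 and 168 TPM in LLC, and Hbb-bs, a beta globin, had a change of 1.41 ± 0.58 (adjusted p = 0.068). Neither adipocyte list, nor mesothelium, nor red cells had a call in the 8-mouse fit without LLC replicate 3. Leaving out one of the other mice gave 0 to 7 (1 without LLC 1, 2 without Control 2, 3 without Control 1, 7 without LLC 2) white adipocyte, 0 to 2 (0 without Control 3 or Control 4 or LLC 1, 2 without Control 1 or LLC 2) brown adipocyte, 0 to 2 (0 without Control 1 or Control 3 or Control 4 or Control 5 or LLC 1, 2 without Control 2) mesothelium and 1 to 7 (1 without Control 4, 7 without Control 1) red cell calls.

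The summed B cell level moved with the tumor in these mice, and when the mean log2 level of the B cell list was a covariate in the fit, 6 genes passed (0.0451%), all higher, while 1650 had an unadjusted p under 0.05. No gene of the 51 lists was among them, which for the B cell list follows from the covariate itself. The 6 were Ablim1, Igkv4-58, Chad, Comp, P3h2 and Wif1, and the last 4 are named after their values were seen. Chad, chondroadherin of cartilage and tendon (chromosome 11, 94565047 to 94569127), was at 3.55, 9.47, 9.99, 8.17 and 15.8 TPM in Control and 30.0, 32.7 and 20.9 TPM in LLC, and its change was 1.57 ± 0.50 (adjusted p = 0.0261) without the covariate and 2.81 (adjusted p = 0.0203) with it. Comp, a matrix protein of the same tissues (chromosome 8, 70373558 to 70382066), was at 2.85, 4.27, 5.91, 3.75 and 7.58 TPM in Control and 12.97, 13.3 and 9.64 TPM in LLC, with changes of 1.19 ± 0.34 and 2.06 (adjusted p = 0.0186 and 0.018). Both were highest in Control replicate 5 and lowest in Control replicate 1 among the Control mice, which is not the order of the B cell genes. Wif1, a secreted inhibitor of Wnt, was at 0.213, 0.310, 0.0860, 0.346 and 0.495 TPM in Control and 1.503, 1.35 and 1.75 TPM in LLC and so met the filter only with the LLC mice, as did Igkv4-58, and P3h2, a collagen prolyl hydroxylase, at 2.29, 2.58, 2.53, 1.96 and 2.55 TPM in Control and 4.07, 3.69 and 4.11 TPM in LLC, both without overlap. The medians with the covariate were -0.12 for the sarcomere, -0.17 for the nuclear respiratory chain, 0.16 for the ribosome and 0.27 for MHC class II. Whether lymphocyte content accounts for any of these changes was not tested.

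The same contrast in the 9 rFibcd1-injected mice, which shares no mouse with LLC and Control, called 1072 genes (8.06%), 934 higher and 138 lower. Of the 4759 genes called in mock-injected mice 606 were among them (12.7%, or 56.5% of the 1072), and 597 of the 606 had the same direction. The difference between the contrasts was called for 0 genes in limma, with a smallest adjusted p of 0.0588, and 1142 genes had an unadjusted p under 0.05 (8.58%). In the nuclear respiratory chain 0 of 29 genes were called with rFibcd1 (median -0.02 against -0.23), and 26 of the 29 had an unadjusted p under 0.05 for the difference. For Sdhb the change was -0.014 ± 0.046 with rFibcd1 and -0.31 ± 0.05 without (unadjusted p of the difference = 0.000652 and adjusted p = 0.147 in limma). In the clock list 10 of 17 genes were called with rFibcd1 (median -0.48), and 9 had an unadjusted p under 0.05 for the difference. In the fast fiber list 7 of 15 genes were called in each contrast (medians -0.20 and -0.39), and of 11 neutrophil markers 9 were called with mock and 7 with rFibcd1 injection (medians 1.17 and 1.02).

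Of single genes, Fbxo32 was at 76.9 ± 10.9 TPM in Control + rFibcd1 (SD, n = 5) and 123 ± 34.4 TPM in LLC + rFibcd1 (SD, n = 4) and Trim63 at 87.1 ± 27.8 TPM in Control + rFibcd1 (SD, n = 5) and 158 ± 43.6 TPM in LLC + rFibcd1 (SD, n = 4). With rFibcd1 both rose with the tumor, by 0.65 ± 0.16 and 0.86 ± 0.22 (adjusted p = 0.0244 and 0.0272), where they had not passed in mock-injected mice, and the adjusted p of the difference was 0.331 and 0.319. Mstn fell in both contrasts, by 0.61 ± 0.23 in mock-injected mice and with a change of -1.58 ± 0.21 with rFibcd1 (adjusted p of the difference = 0.266). Saa3 had a change of -0.57 ± 0.53 with rFibcd1 (adjusted p = 0.48; adjusted p of the difference = 0.166). None of these 4 differences between the contrasts passed.

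**Figure D5:**
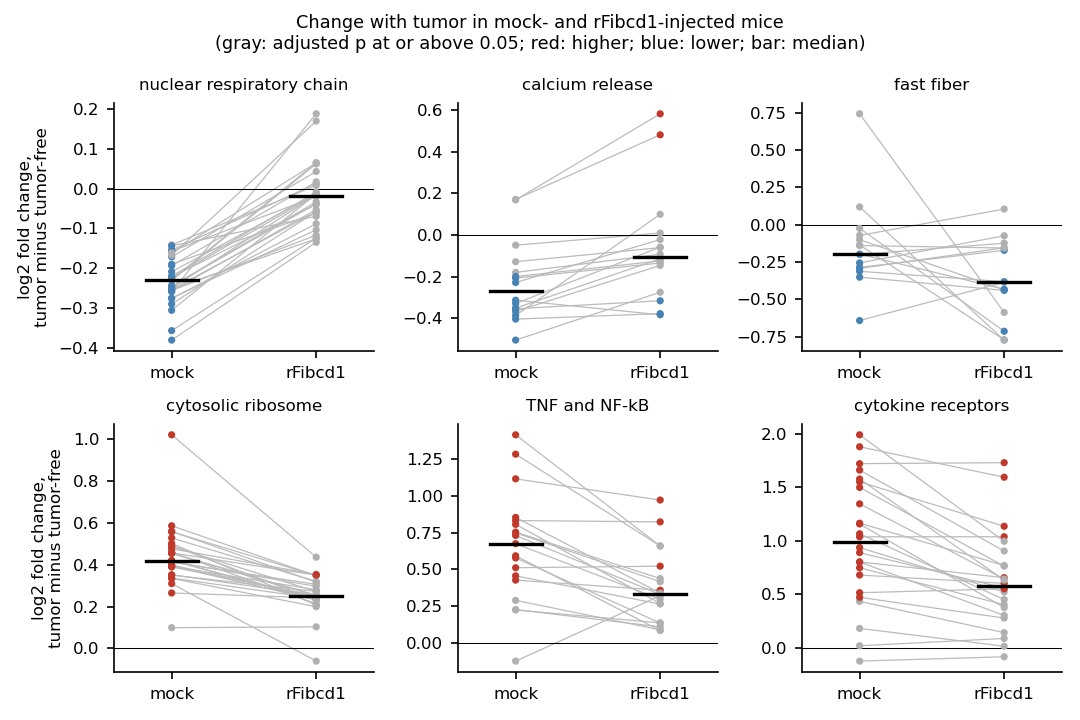
Log2 fold change of TPM + 1 with the tumor (vertical axes) in mock-injected mice (3 LLC, 5 Control) and in rFibcd1-injected mice (4 and 5) for the genes (points joined by lines) of 6 lists, with red for higher and blue for lower genes at an adjusted p under 0.05, gray for the rest and a black bar for the median. The median of the nuclear respiratory chain was -0.23 with mock and -0.020 with rFibcd1 injection, and that of the fast fiber genes -0.20 and -0.39.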

How the data were processed

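Diaphragm RNA of 17 mice was measured by sequencing of mRNA, with 1 library per mouse. The authors trimmed and filtered paired reads, used CLC Genomics Workbench 12.0.1 for alignment to mm10 (GRCm38) and for gene counts, and the deposited values are TPM, which sum to 1000000 in each mouse. The labels and the study's methods name different library kits (1 stranded) and sequencers, so whether antisense reads were counted apart is not known, and the annotation release is not given in the sources used here. TPM are relative, so a rise in abundant transcripts lowers the rest. All 17 columns were mapped to mice by their labels.

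Genes that reached 1 TPM in 3 or more mice were tested on log2(TPM + 1) with limma 3.58.1 in R 4.3.3, in a model with 4 groups and 13 residual degrees of freedom, with a mean-variance trend and Benjamini-Hochberg adjustment over 13305 genes. A fold change on this scale understates that of low genes. The study's rank test (Dunn after Kruskal-Wallis) was run as an alternative. Alternatives changed the pseudocount, the filter, the scaling, the samples fitted, the weights or the covariates, or left out 1 mouse, and the leave-outs within the 8-mouse fit were added after seeing the data. The comparison, the 51 lists (899 distinct genes) and the tests were chosen with earlier results of these data known.

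Genes were named by rule, with up to 2 called genes without overlap per list by the size of the change, up to 25 genes called with all mice and with each of the 8 left out, the 5 largest rises and 5 largest falls without overlap (immunoglobulin and T cell receptor segments aside) and a set named whatever its values, and 26 of the 154 genes were added after their values were seen. A few genes within the lists are not reported here by name. Coordinates are from GENCODE vM21 (GRCm38), matched by symbol for 94.6% of the table, and promoters from RefSeq, without those on chromosome 18. Depth was estimated from whole-read steps within a tolerance of 0.02, which limits precision only for the lowest genes.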

Additional observations from a re-analysis of the deposited data

Results flagged for a closer look

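In 21 of 207 sets of 5 Control values tested, the highest or lowest mouse lay apart from the other 4 by Dixon's test (critical value 0.71). The test was run on TPM without a log, and its chance rate of about 1 in 20 holds for normally distributed values. Whether these values are so distributed was not tested, so 21 of 207 cannot be read against that rate. The sets are also not independent of each other. Control replicate 2 was the mouse that lay apart in 18 of the 21 sets. It was high in immunoglobulin transcripts, with Ighm at 1976 TPM, Igkc at 4283 TPM, Ighg2b at 13.4 TPM, Ighv1-5 at 1.61 TPM, Ighv1-54 at 2.21 TPM and a sum over all immunoglobulin genes of 12079 TPM, of which the constant regions made up 6534 TPM. It was also high in Jchain at 237 TPM, Irf4 at 4.21 TPM and the summed plasma cell markers at 403.8 TPM. The T cell gene Trbc2 at 9.57 TPM, the monocyte genes Ccl8 at 9.93 TPM and Ly6c2 at 3.40 TPM, the venule gene Glycam1 at 2.73 TPM and the summed lymphoid tissue genes at 418.3 TPM set the same mouse apart. So did Ucp1 at 62.3 TPM and the summed mesothelium markers at 291.7 TPM, while its summed calcium release genes were low at 9181 TPM. Control replicate 5 was low in the summed type I interferon genes at 116.3 TPM, against 132.2 to 133.6 TPM in the other Control mice. Its summed brown adipocyte markers were at 3567 TPM, a narrow margin over the 3356 to 3394 TPM of the others. That list includes Cpt1b, which muscle expresses, and Ucp1 was not detected in this mouse. Control replicate 4 was high in Ighv1-85 at 1.94 TPM. No gene passed the adjusted test of a difference between the mock-injected and the rFibcd1-injected contrast.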

How the results depend on the processing

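The number of genes past the threshold (4759) lay between 24 and 5003 when 1 of the 8 Control or LLC mice was left out of the 17-mouse fit, between 2471 (3116 without LLC replicate 1) and 5770 for the 8 mice alone, and was 6 with the B cell level as covariate and 5 with the replicate block, where 4967 genes had an unadjusted p under 0.05. In their deviations from the group means, same-numbered Control and LLC mice correlated at -0.0069, 0.073 and -0.084. Differently numbered ones lay between -0.19 and 0.19, so no pairing by number was seen. These values do not settle whether the numbers mark shared handling, and the rFibcd1-injected mice were not compared in this way. With the filter at 5 TPM the count was 3570. The 23 genes called in all leave-outs became 0 with a pseudocount of 0.1 TPM, 5 with median-ratio scaling, 927 with quantile normalization, 13 without mitochondrially encoded genes, 2338 with the 8 mice alone, 2853 with array weights and 0 with the covariate. An unadjusted p under 0.05 with a fold above 1.5 was met by 1690 genes, which was 1048 with a filter of 5 TPM, 125 with the covariate and 765 by Dunn's test. The 1072 calls in rFibcd1-injected mice became 490 with median-ratio scaling, 467 with quantile normalization, 580 without mitochondrially encoded genes, 652 with the covariate, 492 with the block and 477 to 2893 with 1 mouse left out. The 0 calls for the difference between contrasts became 1 with no filter, 1 with median-ratio scaling, 1 with quantile normalization, 12 with array weights, 2 with the covariate and 0 to 11 with 1 mouse left out. Of 1232 changes of named genes with 1 mouse left out 957 kept direction and call, 260 lost the call, 7 gained one and 8 turned direction, and of 1665 under other settings these were 1292, 336, 14 and 23. Direction turned with median-ratio scaling for Foxo1 (-0.045), Psmb1 (-0.015) and Psmd4 (-0.0044), and with quantile normalization for Atg7 (-0.046), Foxo1 (-0.11), Ifit1 (-0.15) and Nrf1 (-0.095). With the covariate it turned for Cd79a (-0.32), Fbxo32 (0.20), H2-Q7 (-0.16), Ifit1 (-0.11), Ighm (-0.81), Igkc (-1.16), Jchain (-1.05), Ltb (-0.14), Ms4a1 (-0.13), Myh2 (0.17), Myh7 (0.25), Myog (0.058), Pou2af1 (-0.33), Trim63 (0.18) and Ucp1 (-2.58). With the block it turned for Myh7 (0.026), without Control replicate 1 or 3 for Myh7 (0.039 and 0.0043), without Control replicate 4 for Myog (0.039), without LLC replicate 1 for Fbxo32 (0.022), Trim63 (0.039) and Ucp1 (-0.61), and without LLC replicate 3 for Fbxo32 (0.036) and Myh7 (0.034). Over these leave-outs the changes reached -0.19 for Fbxo32, -0.059 for Myh7, -0.12 for Myog, -0.20 for Trim63 and 3.25 for Ucp1 at the other end. The number of called genes moved by over 1.5 times in 49 of the 51 lists with the covariate and 49 with the block, in 19 with quantile normalization, 17 with median-ratio scaling, 15 without mitochondrially encoded genes, 13 with array weights, 12 with the filter at 5 TPM, 10 with the 8 mice alone, 6 with no filter and 5 with a pseudocount of 0.1 TPM. The cause of these shifts was not tested. The depth limits the lowest genes most, such as Wif1, Glycam1 and Tnf.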
